A study of Mus musculus with 6 samples.

Results

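The genes described here encode the amino acid transporters of 7 solute carrier (SLC) families, Slc1, Slc3, Slc6, Slc7, Slc36, Slc38 and Slc43. They were chosen by name, as every symbol of the count table made of one of those family names, the letter a and a number, and 58 of the 23284 symbols qualified. A further matching gene was set aside by the rule and was not analysed here. RNA was sequenced from epithelium of the mouse esophagus at stage E12.5. The 3 p63KO libraries came from embryos homozygous for a Trp63-CreERT2 allele, and the 3 control libraries came from littermates, which the sample titles call WT. The labels do not say whether a library is 1 embryo or a pool, or whether the littermates carried 1 copy of the allele. P-values therefore cover only the spread among these libraries, which may be partly technical. Xist, the RNA of the inactive X chromosome, had 23 counts in p63KO replicate 2 against 24665 and 14569 in p63KO replicates 1 and 3. The p63KO libraries were thus not all repeats of 1 sample. For control this was not settled.

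Cells take up amino acids through carriers that differ in what they bind and in what they exchange for it. System A carriers of the Slc38 family concentrate glutamine and alanine with sodium, exchangers of the Slc7 family then trade those amino acids for leucine, cystine or arginine, and Slc43 carriers let large neutral amino acids pass down their gradient. Most Slc7 light chains reach the membrane only when joined by a disulfide bond to a heavy chain of the Slc3 family. The Slc6 family also carries neurotransmitters, taurine and creatine. p63, the product of Trp63, is the transcription factor of basal cells in stratified epithelia.

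Library depth ranged from 16948971 to 20093838 counts for control and from 13335328 to 16506401 counts for p63KO, at which 3 counts are worth 0.149 to 0.225 CPM (each library scaled to the same size). Values below are CPM scaled by the TMM method unless stated otherwise, and a gene was called changed at an adjusted p under 0.05 in edgeR's quasi-likelihood test, with the adjustment over all 13849 genes tested. Trp63 was between 550.6 and 674.1 CPM in control and between 62.2 and 76.7 CPM in p63KO, so each library matched its label. The epithelial marker list, with Epcam, Cdh1, Krt8 and Sox2, summed to between 4662 and 4788 CPM in control and between 4932 and 4979 CPM in p63KO. Control replicate 3 stood apart: its sum over 17 markers of liver, pancreas, gut, lung and thyroid was 245.7 CPM, against 7.68 and 4.24 CPM in control replicates 1 and 2 and between 23.5 and 43.9 CPM in p63KO. The gut endoderm genes Gata4, Cdx2 and Hnf4a were 69.9, 54.1 and 48.6 CPM in that library and at most 1.12 CPM in any other, while Alb and Ptf1a had no count in any library.

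The 4 promoter windows below belong to the 3 transporters with the largest changes among those counted in both groups and to the cystine carrier Slc7a11, whose window holds letter matches to the ATF4 and C/EBP motif. Each runs from 250 bases before to 50 bases after an annotated start site, 5′ to 3′ on the gene's own strand in build GRCm38.p6. Slc7a10 lies at chr7:35186135-35186434 on the plus strand, Slc38a5 at chrX:8271131-8271430 on the plus strand, Slc7a14 at chr3:31310270-31310569 on the minus strand and Slc7a11 at chr3:50443564-50443863 on the minus strand. Capitals mark matches to any of 5 motifs, which are described beside the results.
Slc7a10: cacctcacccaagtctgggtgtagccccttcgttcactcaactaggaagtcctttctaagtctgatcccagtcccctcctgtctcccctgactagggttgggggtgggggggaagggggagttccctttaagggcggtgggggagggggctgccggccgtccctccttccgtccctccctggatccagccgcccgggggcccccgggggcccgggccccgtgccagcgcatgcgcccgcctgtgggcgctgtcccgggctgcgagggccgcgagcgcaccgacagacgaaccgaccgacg
Slc38a5: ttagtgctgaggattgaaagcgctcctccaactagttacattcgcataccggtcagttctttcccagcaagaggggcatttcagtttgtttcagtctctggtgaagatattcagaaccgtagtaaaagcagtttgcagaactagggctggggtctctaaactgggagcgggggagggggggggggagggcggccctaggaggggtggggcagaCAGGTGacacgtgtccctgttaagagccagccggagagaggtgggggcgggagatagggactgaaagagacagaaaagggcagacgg
Slc7a14: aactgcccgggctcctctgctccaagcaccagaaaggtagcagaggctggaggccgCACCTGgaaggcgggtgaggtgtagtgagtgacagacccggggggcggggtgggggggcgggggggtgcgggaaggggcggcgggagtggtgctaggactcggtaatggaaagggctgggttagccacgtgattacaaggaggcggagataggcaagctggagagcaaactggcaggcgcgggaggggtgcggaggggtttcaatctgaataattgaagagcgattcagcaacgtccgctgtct
Slc7a11: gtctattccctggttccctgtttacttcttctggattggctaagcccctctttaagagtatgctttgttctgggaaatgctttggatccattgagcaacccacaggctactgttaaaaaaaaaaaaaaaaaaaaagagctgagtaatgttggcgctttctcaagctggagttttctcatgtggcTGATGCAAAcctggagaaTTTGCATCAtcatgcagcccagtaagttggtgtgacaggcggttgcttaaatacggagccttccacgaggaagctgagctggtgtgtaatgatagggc

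Of the 58 genes, 36 had enough counts to be tested and 22 did not. In p63KO 14 of the tested genes were higher and 4 lower. Those were 38.9% and 11.1% of the tested members, where 15.3% of all genes tested were called higher and 14.3% lower. In either direction 18 members were called, 50% against 29.6% of all genes. The median log2 fold change was 0.25 over the tested members and -0.01 over all genes tested. The 2 groups of libraries did not overlap for 21 of the 36, against 44.1% of all genes. Of the tested members, 32 had at least 10 counts in every library, and 12 of them were higher and 3 lower. The share of all genes called under that same minimum was not computed, so these 2 counts have no matched background. Slc6a11 and Slc7a14 reached the count minimum in p63KO only and Slc7a10 in control only, so these 3 were bound to differ once tested. Changes of at least 2-fold were found for 7 higher and 2 lower members of the 36, and for 928 higher and 684 lower of all 13849 genes tested. Slc6a11, Slc7a14 and Slc7a10 are among those members. In bulk RNA, fewer cells of a type and less RNA per cell cannot be told apart.

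**Figure D1:**
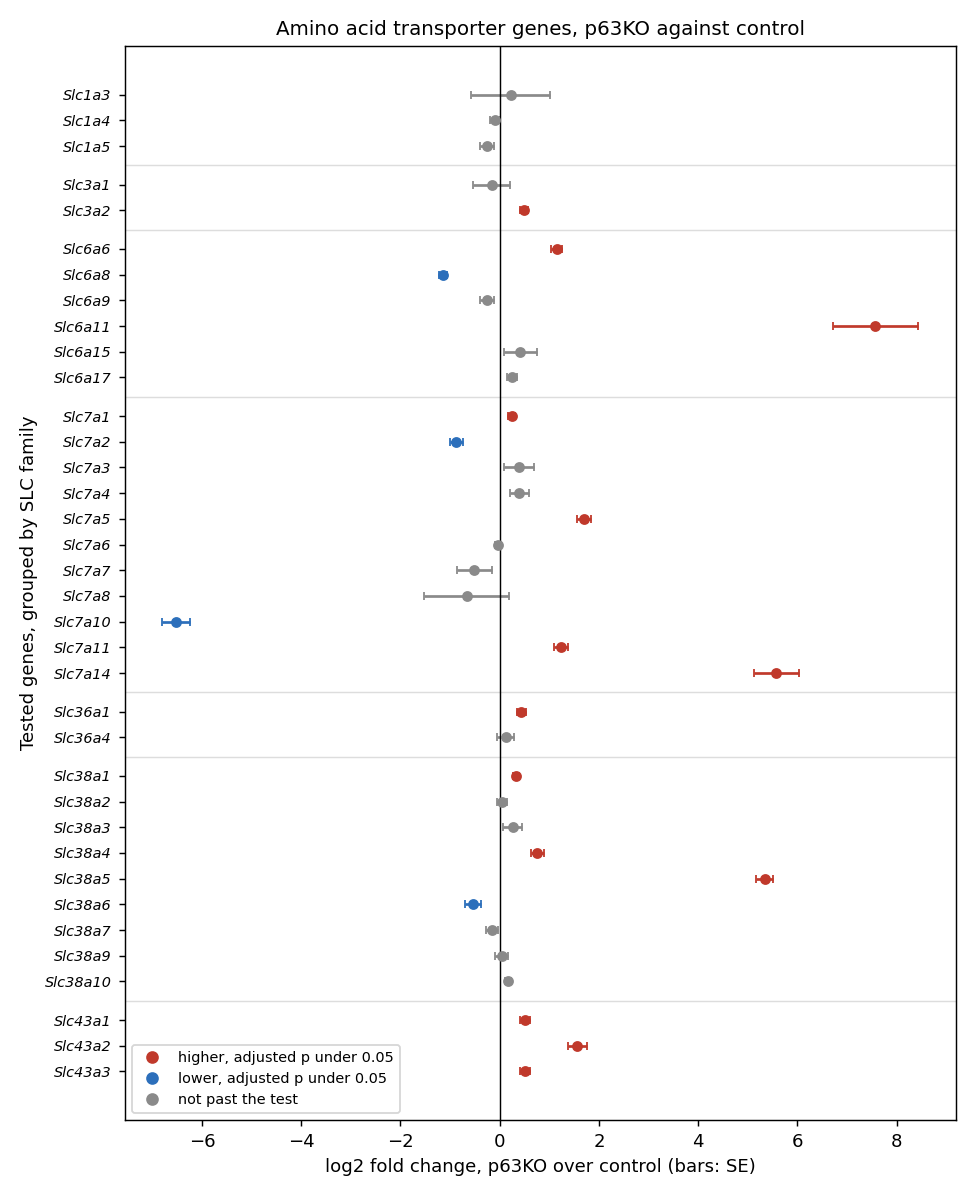
Log2 fold change of p63KO over control for the 36 tested transporter genes, grouped by SLC family on the vertical axis, with bars of 1 SE and colour by call. Red points (14 higher) lie in 6 of the 7 families, blue points (4 lower) in Slc6, Slc7 and Slc38, and all 3 Slc43 genes are red.

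The libraries also differed in cell-type markers. All 16 markers of neuroendocrine cells and neurons were higher in p63KO, with sums between 29.9 and 37.0 CPM in control and between 659.1 and 836.5 CPM in p63KO, and 11 of 12 basal cell markers were lower, with sums of 3466 to 4333 CPM and 422.3 to 529.9 CPM. Of 14 mesenchyme markers in the table, 3 were higher and 5 lower, and their sum was 461.4 to 549.2 CPM in control and 1318 to 1720 CPM in p63KO. Of 8 tested neural crest and glia markers 1 was higher and 2 lower, with sums of 169.8 to 194.2 and 256.0 to 271.8 CPM, and of 6 tested muscle markers 4 were lower, with sums of 80.2 to 182.4 and 31.6 to 57.1 CPM. The median log2 fold change was -0.99 over the tested mesenchyme markers (highest 3.26) and -1.13 over those of neural crest and glia (highest 4.84). In both lists the sum thus rose while the median marker fell. The sums of the macrophage markers (12.51 to 20.7 CPM in control, 14.2 to 16.1 CPM in p63KO) and of the endothelial markers (13.7 to 19.4 and 13.3 to 17.9 CPM) overlapped between the groups. Of the tested macrophage and endothelial markers, 0 were called by edgeR, DESeq2 or limma-voom and 0 had an unadjusted edgeR p under 0.05. Blood markers summed to 6.77, 10.9 and 42.8 CPM in control and to 13.1 to 27.0 CPM in p63KO, the highest value again being control replicate 3. The part of each cell type in the transporter values was not tested.

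The heavy chain Slc3a2 (4F2hc, CD98), which most Slc7 light chains need at the surface, was 65.7, 73.5 and 80.5 CPM in control and 110.5, 95.4 and 102.6 CPM in p63KO. Every p63KO library was above every control library, and the log2 fold change was 0.49 (SE 0.09, edgeR adjusted p = 0.0027). The other heavy chain, Slc3a1 (rBAT), the partner of Slc7a9 in kidney and intestine, had 12 to 30 counts in each library and a log2 fold change of -0.16 (SE 0.37) that did not pass the test. In the GENCODE M21 annotation 26.5% of the exon length of Slc3a1 is shared with Prepl on the opposite strand, and without a stated strand setting reads there could belong to either gene.

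Light chains of Slc7 moved in opposite directions. Slc7a5 (LAT1), the exchanger that brings leucine and other large neutral amino acids into growing cells, was 36.9, 56.4 and 57.9 CPM in control and 167.5, 159.9 and 163.1 CPM in p63KO. The groups were far apart, with a fold of 3.24 and a log2 fold change of 1.70 (SE 0.15, edgeR adjusted p = 2.8e-05). Slc7a11 (xCT), which imports cystine in exchange for glutamate and so feeds glutathione synthesis, was 14.1, 14.9 and 16.1 CPM in control and 37.7, 40.6 and 28.1 CPM in p63KO. Its lowest p63KO library was still above its highest control library, and the log2 fold change was 1.24 (SE 0.14, edgeR adjusted p = 0.00018). Slc7a10 (Asc-1), an exchanger of small neutral amino acids including D-serine, was 18.4, 16.8 and 15.8 CPM in control and 0.24, 0.21 and 0.07 CPM in p63KO. These were 941 counts in control and 8 in p63KO, and scaled for depth the ratio of control over p63KO was 95.6 (95% interval 48.3 to 222.1, counting error only). The fall had a log2 fold change of -6.52 (SE 0.28, edgeR adjusted p = 4.3e-07). Slc7a10 reached the count minimum in control only, so it was bound to differ once tested. Lrp3, which shares 11.2% of the exon length of Slc7a10 on the opposite strand, moved the other way, from between 26.6 and 27.7 CPM in control to between 32.0 and 39.2 CPM in p63KO.

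Slc7a6 (y+LAT2), which exchanges cationic for neutral amino acids, averaged 94.1 ± 4.73 CPM in control against 92.0 ± 4.12 CPM in p63KO (± SD, n = 3 libraries each), a log2 fold change of -0.03 (SE 0.07) that did not pass. Slc7a7 (y+LAT1), its counterpart in absorptive epithelia and macrophages, was 2.74, 2.61 and 5.95 CPM in control and between 2.15 and 2.90 CPM in p63KO, and did not pass (-0.51, SE 0.35). With each library left out its log2 fold change ranged from -0.72 to -0.03. Slc7a8 (LAT2), a light chain of absorptive epithelia, was 0.75, 1.38 and 13.1 CPM in control and 3.84, 2.70 and 2.97 CPM in p63KO. Control replicate 3 alone was above p63KO, while the other control libraries lay below it. The log2 fold change of Slc7a8 was -0.67 (SE 0.86, edgeR adjusted p = 0.62) with all libraries and turned to 1.56 (adjusted p = 0.011) without control replicate 3. Slc7a9 (b0,+AT), the cystine and arginine carrier of the brush border, had 13 counts in control replicate 3, 1 in control replicate 1 and 0 in each of the other 4 libraries, too few to test. Slc7a7, Slc7a8 and Slc7a9 were thus highest in the library in which Gata4, Cdx2 and Hnf4a were high, and the part of other endoderm in their values was not tested. Slc7a12 had 2 counts in all, and Slc7a13 and Slc7a15 had none.

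**Figure D2:**
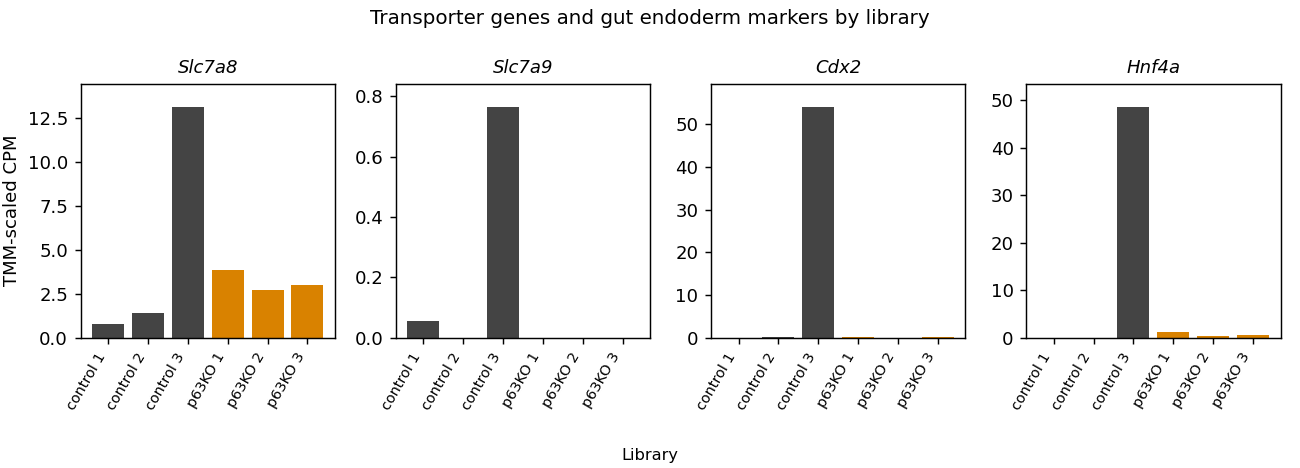
TMM-scaled CPM of Slc7a8, Slc7a9 and the gut endoderm markers Cdx2 and Hnf4a in each library, control in grey and p63KO in orange, each panel with its own axis from 0. Control replicate 3 is the highest bar in all 4 panels, at 13.1 CPM for Slc7a8 and 54.1 CPM for Cdx2.

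Set per length (CPM per kilobase of exon in GENCODE M21, a scale on which genes can be compared), the light chains known to pair with Slc3a2 stood in other proportions in p63KO. Slc7a5 made up 22.8%, 30.1% and 29.6% of their summed level in control and 61.9%, 59.4% and 61.1% in p63KO. Slc7a6 had the largest share in control, between 44.1% and 52.5%, and between 30.3% and 33.2% in p63KO. Slc7a10 went from between 13.5% and 19.0% to between 0.046% and 0.145%. The ratio of Slc7a5 to Slc3a2 on this scale was 0.59 ± 0.09 for control and 1.37 ± 0.07 for p63KO (SD, n = 3 each), with no overlap. The summed light chains over Slc3a2, in contrast, ranged from 2.09 to 2.20 for control and from 2.102 to 2.43 for p63KO, which overlap. These ratios were formed after the values of the genes were known and are given as descriptions.

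**Figure D3:**
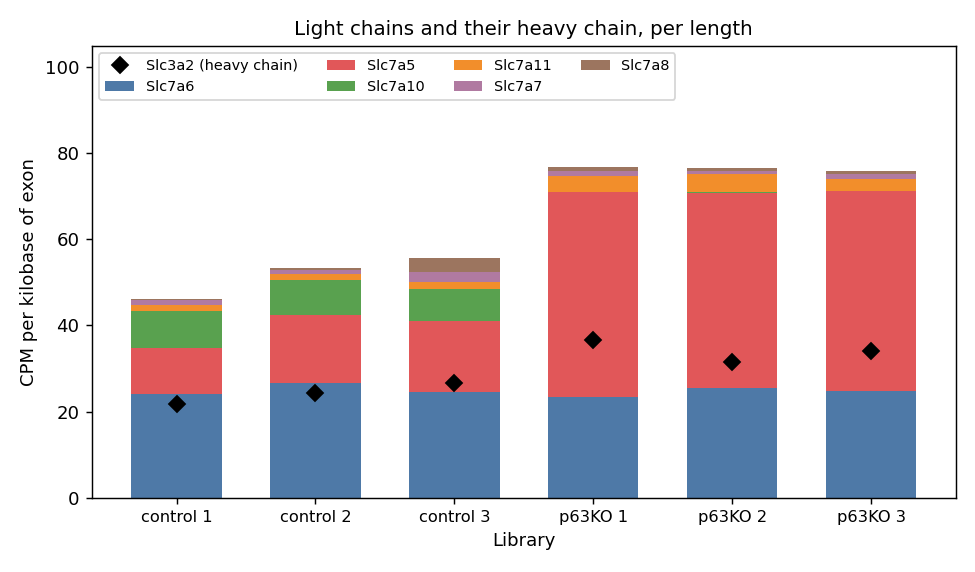
CPM per kilobase of exon for 6 light chains that pair with Slc3a2 (stacked bars) and for Slc3a2 itself (diamonds), by library. The Slc7a5 segment is widest in the 3 p63KO libraries, the Slc7a10 segment is visible in control only, and the Slc7a6 segment is alike in all 6.

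The cationic branch of Slc7 works without a heavy chain. Slc7a14, a lysosomal member known from retina and brain, was 0.32, 0.05 and 0.53 CPM in control and 15.9, 10.4 and 16.4 CPM in p63KO, that is 6, 1 and 9 counts against 270, 150 and 221. All p63KO libraries were high and all control libraries near 0, with a log2 fold change of 5.57 (SE 0.46, edgeR adjusted p = 2.0e-05). That change was 6.22 without control replicate 3 and 5.05 without control replicate 2. Slc7a14 reached the count minimum in p63KO only, so it was bound to differ once tested. Slc7a2 (CAT2), an arginine and lysine carrier, was 32.2, 38.3 and 34.0 CPM in control and 20.8, 15.4 and 20.8 CPM in p63KO, so all 3 p63KO libraries were lower. It fell by 0.87 on the log2 scale (SE 0.13, edgeR adjusted p = 0.0011). Slc7a1 (CAT1), the carrier of most cells, was between 66.1 and 68.1 CPM in control and between 75.9 and 85.3 CPM in p63KO, a log2 fold change of 0.24 (SE 0.07, edgeR adjusted p = 0.025). That call was lost without control replicate 1, 2 or 3 (adjusted p = 0.062, 0.064 and 0.072), as well as without p63KO replicate 3 (0.087). Slc7a3 (0.39, SE 0.30) and Slc7a4 (0.40, SE 0.19) did not pass, although every p63KO library had more Slc7a4 than every control library.

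Of the 16 Slc6 genes, 6 were tested, 2 rose and 1 fell. Slc6a6 (TauT), the taurine carrier, was 106.3, 84.9 and 119.0 CPM in control and 233.9, 225.8 and 229.1 CPM in p63KO. All 3 p63KO libraries were about equally high, and the log2 fold change was 1.15 (SE 0.11, edgeR adjusted p = 5.0e-05). Slc6a8, the creatine carrier, went the other way, from 104.2, 97.3 and 98.5 CPM to 48.4, 47.5 and 40.1 CPM. Its groups did not overlap, and it fell by 1.14 on the log2 scale (SE 0.08, edgeR adjusted p = 9.6e-06). Slc6a11 (GAT3), a carrier that clears the transmitter GABA, had no count in control and 19, 23 and 21 counts in the p63KO libraries, a level at least 25.8-fold higher when control is given a floor of 3 counts over the group. Its level in p63KO was low, at 1.42 ± 0.26 CPM (SD, n = 3). Slc6a11 reached the count minimum in p63KO only, so it was bound to differ once tested (edgeR adjusted p = 0.00052).

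Slc6a9 (GlyT1), a glycine carrier, averaged 13.98 ± 1.84 CPM in control against 11.6 ± 0.62 CPM in p63KO (± SD, n = 3 libraries each) and did not pass (-0.26, SE 0.14); 52.7% of its exon length is shared with Ccdc24 and a predicted gene on the opposite strand. Slc6a17, a synaptic vesicle carrier of neutral amino acids, was between 15.3 and 17.1 CPM in control and between 18.4 and 20.01 CPM in p63KO (0.25, SE 0.11, edgeR adjusted p = 0.11), and Slc6a15, a brain carrier of branched-chain amino acids, was at 0.41 (SE 0.33). Among the Slc6 genes with too few counts, Slc6a13 (GAT2), a GABA and taurine carrier, had 9, 17 and 13 counts in control and 1, 2 and 1 in p63KO. All p63KO libraries were lower, with a depth-scaled ratio of control over p63KO of 7.92 (95% interval 2.86 to 30.5, counting error only), and with no filter on low counts it was called lower (log2 fold change -2.88, edgeR adjusted p = 0.0088). The catecholamine carriers Slc6a2 and Slc6a3 had 12 and 11 counts over all libraries and the neutral and cationic carrier Slc6a14 had 19. The neuronal glycine carrier Slc6a5 (GlyT2) and Slc6a18 had no count. Slc6a7, Slc6a12 and Slc6a19, carriers of proline, of betaine and GABA, and of neutral amino acids in kidney and intestine, had between 2 and 6 counts over all libraries.

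Within Slc38, the system N carrier Slc38a5 (SNAT5), which moves glutamine, histidine and serine and is also found in pancreatic alpha cells, had the largest log2 fold change among the tested genes of the family. It was 2.52, 1.53 and 2.36 CPM in control and 98.5, 74.5 and 86.4 CPM in p63KO. All control libraries were low, between 30 and 47 counts, and the p63KO libraries held between 1075 and 1669 counts. The fold was 40.6 (log2 fold change 5.34, SE 0.18, edgeR adjusted p = 1.2e-07). The other system N carrier, Slc38a3 (SNAT3), known from liver and kidney, was between 5.01 and 6.01 CPM in control and between 5.89 and 7.5 CPM in p63KO and did not pass (0.26, SE 0.19). Slc38a5 and Slc6a8 are X-linked. Xist, the RNA of the inactive X chromosome, was 1.59 CPM in p63KO replicate 2 but ranged from 514.4 to 1456 CPM elsewhere. In p63KO replicate 2, Slc38a5 was 74.5 CPM and Slc6a8 47.5 CPM. The part of the embryos' X chromosomes in these values was not tested.

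Of the system A carriers, Slc38a1 (SNAT1) was 351.8, 356.0 and 365.7 CPM in control and 428.8, 461.0 and 457.6 CPM in p63KO, a small change with no overlap (log2 fold change 0.33, SE 0.06, edgeR adjusted p = 0.0024). Slc38a4 (SNAT4), an imprinted gene expressed from the paternal copy, was 60.7, 70.9 and 71.1 CPM in control and 92.1, 116.4 and 134.0 CPM in p63KO. Its p63KO libraries were all higher but spread widely, and the log2 fold change was 0.76 (SE 0.13, edgeR adjusted p = 0.0019). Slc38a2 (SNAT2), the member induced by amino acid shortage, averaged 370.2 ± 28.3 CPM in control against 384.4 ± 51.3 CPM in p63KO (± SD, n = 3 libraries each) and did not pass (0.05, SE 0.10).

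Slc38a6, an orphan carrier, was 12.6, 11.3 and 12.8 CPM in control and 9.9, 7.13 and 8.02 CPM in p63KO. It fell by 0.54 on the log2 scale (SE 0.16, edgeR adjusted p = 0.034), a call lost on leaving out control replicate 1 or 3 (adjusted p = 0.087 and 0.071), on leaving out p63KO replicate 2 or 3 (0.12 and 0.099) and with libraries scaled by total count (0.053). Slc38a10, an abundant and little-studied carrier, was between 161.9 and 181.5 CPM in control and between 184.9 and 198.2 CPM in p63KO and did not pass (0.16, SE 0.06, edgeR adjusted p = 0.088). It did pass with upper-quartile factors (0.049), with total counts (0.043) and with a block for the replicate number (0.035). Slc38a7, a lysosomal glutamine carrier, was at -0.16 (SE 0.12), and Slc38a9, the lysosomal arginine sensor, at 0.04 (SE 0.13). Slc38a11 had no count in control and 13, 4 and 15 in p63KO, at least 13.1-fold higher against the floor of 3 counts, and was called higher with no filter on low counts (edgeR adjusted p = 0.0038). Slc38a8 had 2 counts in all.

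**Figure D4:**
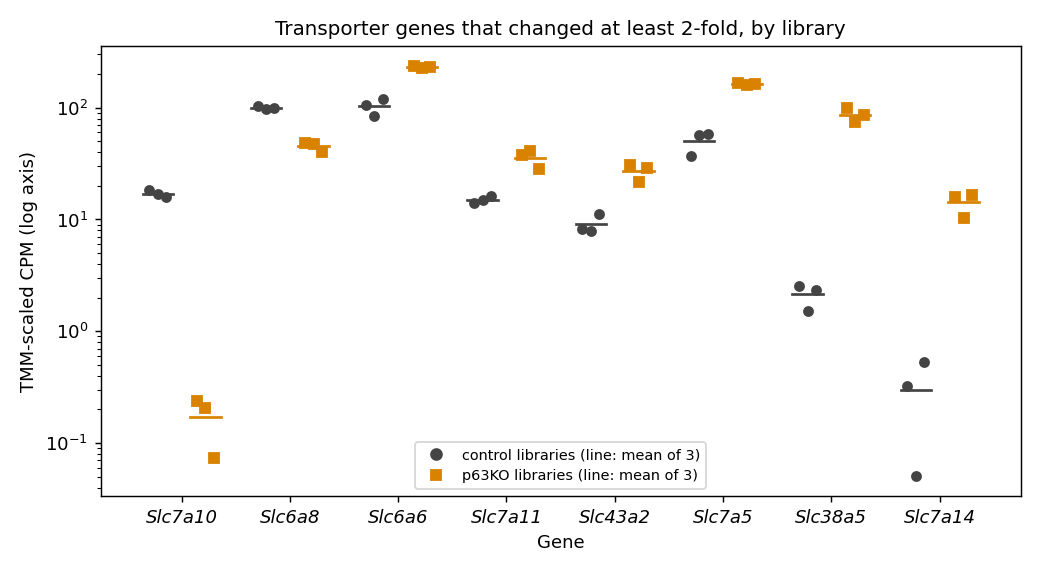
TMM-scaled CPM on a log axis for 8 of the 9 tested members that changed at least 2-fold, each point a library and each line the mean of 3 (Slc6a11, at 0 in control, cannot be drawn on a log axis). In none of the 8 genes do the control and p63KO points overlap, and Slc38a5 goes from about 2 CPM to between 74.5 and 98.5 CPM.

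All 3 Slc43 genes rose. Slc43a2 (LAT4), a facilitative carrier of leucine, phenylalanine and methionine, was 8.27, 7.97 and 11.3 CPM in control and 30.9, 21.5 and 29.1 CPM in p63KO. Every p63KO library was clearly above control, with a fold of 2.96 (log2 fold change 1.57, SE 0.18, edgeR adjusted p = 0.00019). An opposite-strand gene shares 7.62% of its exon length. Slc43a1 (LAT3), with the same substrates, was between 12.9 and 14.4 CPM in control and between 18.9 and 20.4 CPM in p63KO (0.51, SE 0.11, edgeR adjusted p = 0.0067). Slc43a3, which carries purine nucleobases, was between 28.8 and 32.0 CPM in control and between 37.2 and 46.6 CPM in p63KO (0.51, SE 0.10, adjusted p = 0.0050). The 3 calls were kept with each library left out.

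In Slc36, the proton-coupled carriers, Slc36a1 (PAT1), which exports small amino acids from lysosomes, was 50.6, 48.1 and 47.7 CPM in control and 72.2, 67.4 and 58.4 CPM in p63KO. The p63KO libraries were all higher, with a log2 fold change of 0.44 (SE 0.09, edgeR adjusted p = 0.0043). Slc36a4 (PAT4) was at 0.12 (SE 0.17) and did not pass, Slc36a2 had 4 counts in all and Slc36a3 none.

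The Slc1 family held no called gene. Of its 7 members 3 were tested, and 0 were called by edgeR, DESeq2 or limma-voom with group as the single term or had an unadjusted edgeR p under 0.05. With a block for the replicate number, Slc1a5 was called lower (log2 fold change -0.24, edgeR adjusted p = 0.022). Slc1a5 (ASCT2), the glutamine exchanger of growing cells, was 109.7, 89.5 and 138.2 CPM in control and 94.1, 82.1 and 106.4 CPM in p63KO, which overlap (log2 fold change -0.25, SE 0.15, edgeR adjusted p = 0.25). Slc1a4 (ASCT1), an exchanger of alanine, serine and cysteine, averaged 34.9 ± 3.43 CPM in control against 32.7 ± 1.29 CPM in p63KO (± SD, n = 3 libraries each; -0.10, SE 0.09). Slc1a3 (GLAST), a glutamate carrier of glia, was 0.32, 0.51 and 2.71 CPM in control and 2.48, 0.97 and 0.52 CPM in p63KO, with no order between the groups (0.22, SE 0.79). The glutamate carriers Slc1a1 and Slc1a2 had 41 counts each over all libraries. Slc1a6 had 7, 9 and 14 counts in control and 3, 2 and 5 in p63KO, so the ratio of control over p63KO, scaled for depth, was 2.44 (95% interval 1.16 to 5.59, counting error only). With no filter on low counts Slc1a6 was not called, and Slc1a7 had 2 counts in all.

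In level per length, the glutamine carriers led in control. Slc38a2 was highest at 79.4 ± 6.07 CPM per kilobase of exon (SD, n = 3), followed by Slc1a5 at 40.7 ± 8.85, Slc38a1 at 33.3 ± 0.66 and Slc38a10 at 31.7 ± 1.81. The spans of mean ± SD of these last 3 overlapped, although Slc1a5 and Slc38a1 were both above Slc38a10 in every control library. Slc6a8 (25.2 ± 0.93), Slc7a6 (25.1 ± 1.26) and Slc3a2 (24.2 ± 2.45) came next, and their spans likewise overlapped. In p63KO Slc38a2 was again highest at 82.5 ± 11.02, Slc7a5 moved from rank 10 to rank 2 at 46.5 ± 1.08, Slc38a5 from rank 30 to rank 4 at 38.9 ± 5.41, and Slc6a6 from rank 8 to rank 5 at 37.1 ± 0.66. Slc1a5, which was not called, went from rank 2 to rank 7 at 34.1 ± 4.4. The span of its p63KO level overlapped those of Slc38a5, Slc6a6, Slc38a10 (35.5 ± 1.25) and Slc3a2 (34.0 ± 2.51). Of these, only Slc38a5 was above Slc1a5 in every p63KO library. Slc6a8 went from rank 5 to rank 13 and Slc7a10 from rank 15 to rank 39 of the 58 genes.

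**Figure D5:**
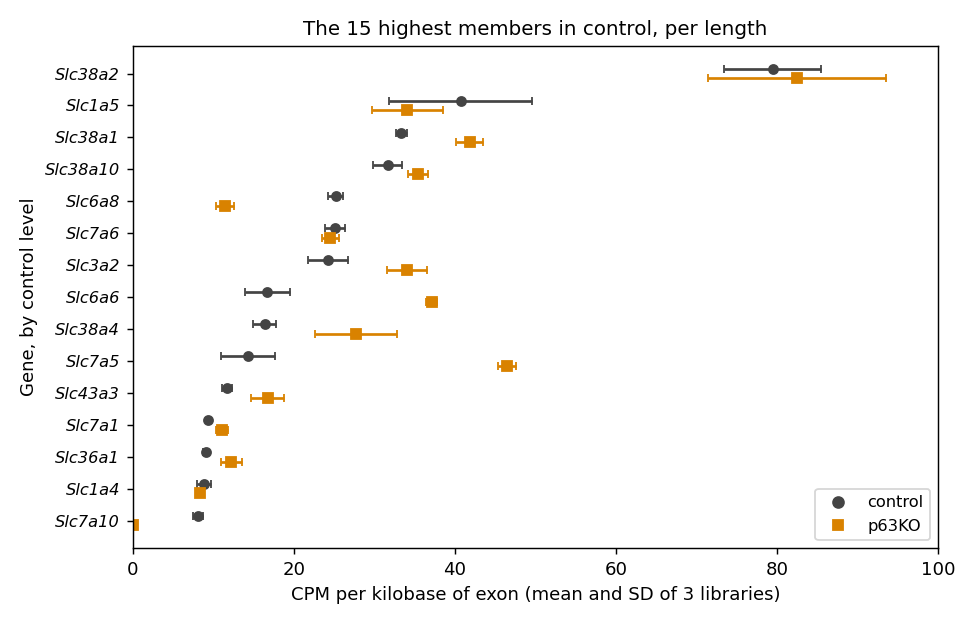
CPM per kilobase of exon, mean and SD of 3 libraries, for the 15 members highest in control, control as circles and p63KO as squares. Slc38a2 is highest in both groups, Slc7a5 and Slc6a6 lie well to the right in p63KO, and Slc6a8 and Slc7a10 lie to the left.

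Promoter windows were found in the RefSeq table for 40 of the 58 genes (61 windows). A composite element of ATF4 and C/EBP factors (TGATGNAAN, both strands), an element through which amino acid shortage acts, matched at 2 places in the Slc7a11 window shown above, in opposite orientation, and elsewhere among members in Slc1a4 and Slc7a7. That was 4 of the 61 member windows (6.56%), against 3.95% of all 32851 windows. Of these genes Slc7a11 rose, while Slc1a4 and Slc7a7 did not pass the test. The antioxidant response element (TGACNNNGC, both strands) matched in 10 of the 61 member windows (16.4%), which belong to 8 members, against 12.4% of all windows. A p53 family full site with CATG cores (CATGNNNNNNCATG) matched in no member window and in 0.712% of all windows, and one with a CAAG and a CATG core (CAAGNNNNNNCATG, both strands) matched only in Slc1a3 among members, against 0.95% of all. The E-box of proneural factors (CAGNTG, both strands) matched in 34 of the 61 member windows (55.7%), which belong to 28 members, against 51.4% of all windows. Among the windows shown it matched at 1 place each in those of Slc38a5 and Slc7a14, and the Slc7a10 window held none of the 5 motifs. No matches overlapped in the 4 windows shown. A match is a description of the letters in this window only.

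Other genes of amino acid handling were counted in 5 lists. Of all genes tested, 15.3% were called higher and 14.3% lower. Of 18 tested amino acid carriers outside the rule, 4 rose and 1 fell (22.2% higher, 5.56% lower). Sfxn1, the mitochondrial serine carrier, rose from 84.3 ± 5.65 to 106.0 ± 2.19 CPM, and Slc17a7 (VGLUT1), the vesicular glutamate carrier, from 0.10 ± 0.09 to 1.41 ± 0.11 CPM (SD, n = 3 each). Slc17a7 had 3, 3 and 0 counts in control and reached the count minimum in p63KO only, so it was bound to differ once tested. Only 2 of this list rose without control replicate 2 or 3 or p63KO replicate 1, and 0 fell without control replicate 2 or 3 or any p63KO library. Of 31 genes of amino acid sensing by mTORC1 at the lysosome, 3 rose, 3 fell and 25 did not pass (9.68% higher, 9.68% lower). The leucine sensor family member Sesn1, also a p53 target, fell from 82.6 ± 10.8 to 25.5 ± 0.81 CPM, and Gatsl2 (Castor2), of the arginine sensor family, rose from 11.1 ± 1.15 to 28.7 ± 4.63 CPM. The other member of that family, Gatsl3 (Castor1), named after its value was seen, fell to 0.58 ± 0.10 CPM from 3.63 ± 0.54 CPM in control, with an edgeR adjusted p of 0.00015 (log2 fold change -2.63, SE 0.29).

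Of 27 tested genes of the amino acid response through Gcn2 and Atf4, 7 rose and 4 fell. Those were 25.9% and 14.8%, against 15.3% and 14.3% of all genes tested. Psat1, of serine synthesis, rose from 138.8 ± 8.49 to 222.1 ± 16.8 CPM and Mthfd2, of mitochondrial folate metabolism, from 22.2 ± 2.39 to 39.4 ± 2.70 CPM (SD, n = 3 each). Other genes of serine metabolism in the list did not rise: Psph (log2 fold change -0.39, SE 0.11) and Shmt2 (-0.34, SE 0.07) were among the 4 that fell. Phgdh (-0.04, SE 0.09) did not pass. These 3 were named after their values were seen. Psat1, Phgdh, Psph, Shmt2 and Pycr1 are counted again in the serine, glycine and branched-chain list below. The number that fell was 2 without control replicate 1 or p63KO replicate 2 or 3. Of 18 genes of glutamine, glutamate and glutathione metabolism, 6 rose and 2 fell (33.3% and 11.1%), and 3 rose without control replicate 1. The lowest p-values were those of Gad1, which makes GABA (0.02 ± 0.03 against 10.5 ± 2.83 CPM), and Abat, which breaks GABA down (77.8 ± 0.78 against 127.0 ± 2.35 CPM). At its control level Gad1 reached the count minimum in p63KO only, so it was bound to differ once tested. Among the genes that fell was Gclm, a subunit of the enzyme that starts glutathione synthesis (log2 fold change -0.84, SE 0.08), named after its value was seen. Of 27 genes of serine, glycine and branched-chain metabolism, 7 rose and 4 fell (25.9% and 14.8%). The lowest p-values were those of Cbs, of cystathionine synthesis, which rose from 3.28 ± 0.81 to 14.9 ± 2.77 CPM, and Psat1. Bcat1, a branched-chain aminotransferase named after its value was seen, rose to 59.9 ± 13.2 CPM from 5.70 ± 3.62 CPM in control, with an edgeR adjusted p of 0.00014 (log2 fold change 3.38, SE 0.38). Without control replicate 3 or p63KO replicate 1 or 3 only 1 of this list fell, and without control replicate 1 or p63KO replicate 2 it was 2.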

How the data were processed

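The authors deposited raw counts by gene symbol for 6 libraries, without normalization. TopHat2 2.1.0, bcl2fastq 1.8.4, DESeq2 and build mm9 are named, per the submitters' processing notes. Counter, annotation and strand use were not given in the sources used here. Columns were tied to samples by names in the sample descriptions.

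The analysis used edgeR 4.0.16 in R 4.3.3, with filterByExpr (minimum count 10, minimum total count 15), TMM scaling and a quasi-likelihood test in which group was the single term. Benjamini-Hochberg adjustment ran over all 13849 tested genes. The SE is the log2 fold change divided by the square root of F. The biological coefficient of variation was 12.7%. The fit was tested on simulated counts. Alternatives were DESeq2 1.42.0, limma-voom (limma 3.58.1), 3 other scalings, 2 other filters, stricter thresholds, leaving out each library, and a block for the replicate number.

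Lengths and exon overlaps came from GENCODE M21 (GRCm38), which differs from the build counted, and promoter windows from RefSeq (GRCm38.p6). Exon length is the union of basic transcripts. No protein sequence was used here. A member counted in the totals is not reported here.

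Named were every called member, members not called with a mean of at least 20 CPM, untested members with at least 10 counts, and from each other list the 2 called genes of lowest p; other genes were named after their values were seen. The members, lists and motifs were chosen with earlier results of these data known. Replicates differed by more than sampling noise (chi-square per degree of freedom 7.53 to 15.3).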

Additional observations from a re-analysis of the deposited data

How the results depend on the processing

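Of the 18 transporter calls, 16 were kept in all 14 alternatives, and the exceptions were Slc7a1 and Slc38a6. The kept calls include Slc6a11, Slc7a14 and Slc7a10, which were bound to differ once tested. With each library left out in turn, 13 to 15 members were higher and 3 to 5 lower, and over all genes 1650 to 1965 were higher and 1500 to 1806 lower. With a minimum change of 2-fold, 7 members were higher and 2 lower, and 928 and 684 of all genes. At an adjusted p under 0.01, 13 members were higher and 3 lower, and over all genes 1353 were higher and 1227 lower. Slc7a8 (-0.67 with all libraries) ranged from -1.18 to 1.56 with each library left out and was above 0 only without control replicate 3; the cause was not tested. With the replicate block, 15 members were higher and 5 lower, all 18 calls were kept and Slc1a5 and Slc38a10 were added. Libraries with the same number correlated in their deviations at 0.173, 0.264 and 0.035, which does not establish pairing: the samples share only a number, and control replicate 3 correlated best with p63KO replicate 1 (0.056). With no filter and in DESeq2, Slc38a11 was also called higher and Slc6a13 lower. Depth limits the 22 untested members, 7 of which had between 1 and 9 counts, where a change would not be detectable.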
